A study of Mus musculus with 24 samples.

Results

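Wheel running was compared with a sedentary state in dystrophic muscle that was under activin receptor ligand blockade in both groups. The comparison set 5 arrays of mdx mice given sActRIIB-Fc with voluntary wheel running (the combination) against 5 arrays of mdx mice given sActRIIB-Fc alone, and these 10 arrays were all the members among the 24 arrays of the study. They were chosen by their labelled treatment and by no measured value. All 10 mice were male, carried the mdx mutation, which removes dystrophin, and received 5 mg/kg sActRIIB-Fc into the abdomen once a week for 7 weeks, so the blockade is common to both groups. The combination mice also had access to running wheels for those 7 weeks. How far each mouse ran is not given in the sources used here, and neither is the strain background of the mdx mice. Their age is labelled 6 to 7 weeks, without saying when in the study it was counted. Mdx mice injected with PBS for 7 weeks, with wheels for those 7 weeks (5 arrays) or without (5 arrays), were also used. They set running under PBS beside running under sActRIIB-Fc. A further 4 arrays of wild-type mice, labelled as having no treatment, entered the model of the spread. The age label of the PBS and wild-type mice is the same 6 to 7 weeks.

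Voluntary running is an endurance stimulus. In healthy mouse muscle it is known for raising mitochondrial content, fatty acid oxidation and capillary supply and for moving fast fibres toward more oxidative types, and the coactivator encoded by Ppargc1a takes part in this. sActRIIB-Fc is a soluble form of the activin receptor type IIB joined to an antibody tail. It binds myostatin, activins and related ligands that restrain muscle size, and fibres grow when these ligands are captured. Muscle of mdx mice goes through repeated damage, inflammation and regeneration.

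The tissue was gastrocnemius, a hind-limb muscle made mainly of fast fibres. Levels are log2 signals after background correction and quantile normalization. The muscle creatine kinase gene Ckm lay between 14.55 and 14.72 on the combination arrays and between 14.61 and 14.68 on the sActRIIB-Fc arrays, and the mean of 14 fast fibre genes between 13.59 and 13.89 against 13.81 and 13.87. Probes detected numbered 11154 to 11971 on the combination arrays and 11088 to 11539 on the sActRIIB-Fc arrays, out of 25697, and the raw median signal was 76.0 to 98.4 against 79.0 to 98.1. In both groups the raw median signal was highest on replicate 1 and lowest on replicate 5. Probes of Dmd and Mstn were detected on no array.

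The combination arrays were less alike than the sActRIIB-Fc arrays. Correlations between arrays of one group ran from 0.953 to 0.989 in the combination and from 0.988 to 0.993 under sActRIIB-Fc. The median SD of a gene was 0.24 log2 units in the combination, against 0.16 under sActRIIB-Fc, and 74.1% of genes had the larger SD in the combination. Transcripts made by hepatocytes, which muscle does not normally contain, set some arrays apart. The mean of 17 such genes was 9.80, 9.13, 5.70, 5.89 and 5.67 on combination replicates 1 to 5, against 7.17, 5.87, 5.63, 5.63 and 6.37 on sActRIIB-Fc replicates 1 to 5. Combination replicates 1 and 2 were therefore the highest of the 10 arrays, and their values are given apart for some of the results below.

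Running added to sActRIIB-Fc changed no gene past the test. Of 8945 genes, 0 (0%) had an adjusted p under 0.05 in either direction in limma's moderated test, and the lowest adjusted p was 0.52. An unadjusted p under 0.05 was reached by 741 genes (8.28%), 366 higher (4.09%) and 375 lower (4.19%) in the combination. That count was 477 without combination replicate 1 and 1513 without combination replicate 4, and no gene passed without either. Every combination array lay above every sActRIIB-Fc array for 41 genes (0.458%) and below for 32 genes (0.358%). Among so many genes some separate in this way by the order of the arrays alone, and these counts were not tested. Separate groups are therefore given below as a description of the values and not as support for a change. Positive differences were found for 47.3% of genes and negative ones for 52.7%, with a median of -0.01 log2 units.

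The intervals limit what could have changed for each gene taken alone, and are not joint limits over all genes. They rest on 1 spread per gene, fitted over all 24 arrays. The spread was often larger in the combination, as for Gal3st1 (SD 0.72, against 0.35 under sActRIIB-Fc) and Casq1 (0.76 against 0.23). For such genes the intervals can be too narrow. The standard error of a difference had a median of 0.13 log2 units, and the 95% interval extended a median of 0.27 to each side. For 8758 genes (97.9%) the whole interval lay within 1 log2 unit of zero, and for 6628 genes (74.1%) within 0.5. Differences of 1 log2 unit or more were estimated for 26 genes, 25 higher and 1 lower. Of these, 13 belonged to the hepatocyte list, and Gal3st1 was the 1 that was lower. With only the arrays of the compared groups in the model, 0 genes passed and the lowest adjusted p was 0.79 (limma). In that model 536 genes reached an unadjusted p under 0.05.

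**Figure D1:**
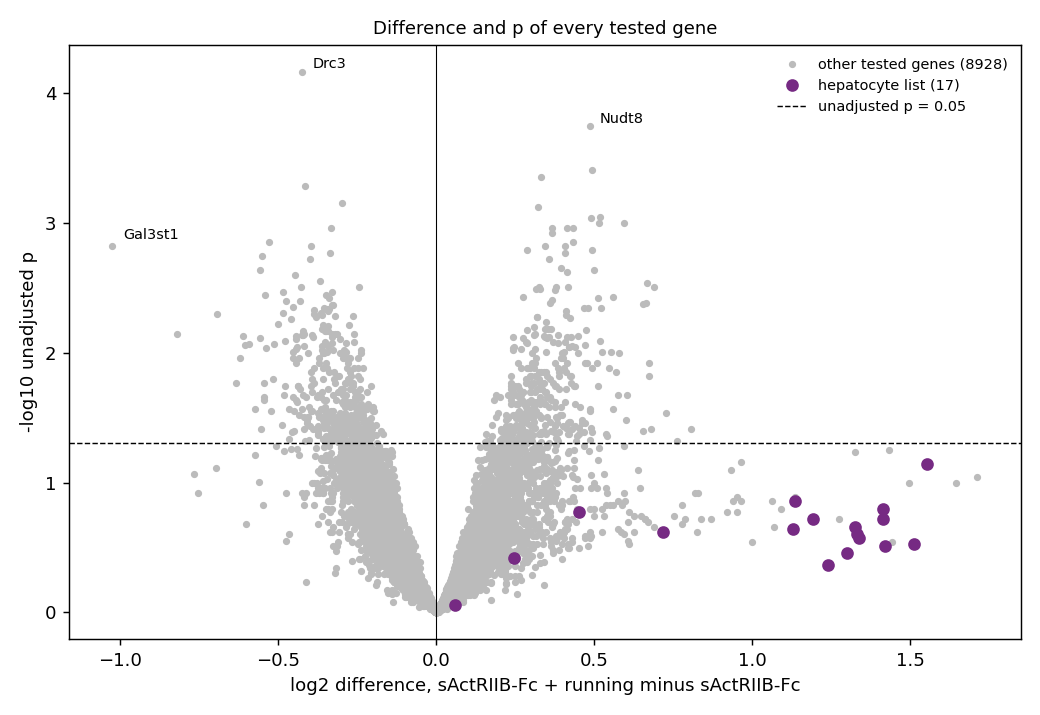
Each point is 1 of 8945 genes, with its log2 difference (combination minus sActRIIB-Fc) on the horizontal axis and the -log10 of its unadjusted p on the vertical axis; the dashed line is an unadjusted p of 0.05. The 17 hepatocyte genes, in purple, spread to the right up to 1.55 and all lie below the line, while the genes with the lowest p, Drc3 and Nudt8, differ by less than 0.5 log2 units.

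The genes with the lowest p were named as values, since none passed, and each of the 20 had an adjusted p of 0.52 (limma). Nudt8, which encodes a mitochondrial nucleotide hydrolase, had levels of 9.25, 8.99, 9.16, 9.13 and 8.97 on the combination arrays, against 8.41, 8.82, 8.80, 8.42 and 8.61 on the sActRIIB-Fc arrays. The groups did not overlap, and the difference was 0.49 ± 0.11 log2 units (SE, 95% interval 0.26 to 0.71, 1.40-fold). Acy1, the enzyme that frees amino acids from their N-acetylated forms, measured 7.54, 7.52, 7.50, 7.71 and 7.48 in the combination, against 7.30, 7.16, 7.12, 7.20 and 7.32 under sActRIIB-Fc. These groups were separate too, by a difference of 0.33 ± 0.08. Pgls, which acts in the pentose phosphate pathway, had 10.55, 10.32, 10.81, 10.52 and 10.37 in the combination, against 9.93, 10.25, 10.17, 10.10 and 9.96 under sActRIIB-Fc, a difference of 0.43 ± 0.12 with no overlap.

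Amdhd2, an enzyme of N-acetylglucosamine turnover, differed by 0.49 ± 0.12 with separate groups. Its range was 7.58 to 8.44 in the combination and 7.33 to 7.56 under sActRIIB-Fc. Hsd17b11, a dehydrogenase found on lipid droplets, differed by 0.37 ± 0.10, but its 1 other probe had the opposite sign. Bik, a promoter of apoptosis, differed by 0.51 ± 0.14, from separate groups at 6.41 to 6.74 in the combination and 5.77 to 6.25 under sActRIIB-Fc. Adap2, a regulator of small GTPases of the Arf family, differed by 0.52 ± 0.14 and H2-K1, an MHC class I heavy chain, by 0.59 ± 0.16, and both overlapped. Fndc4, which encodes a secreted fibronectin-domain protein, was detected on 5 combination arrays and on 0 sActRIIB-Fc arrays. Set against the detection limit on the sActRIIB-Fc arrays, it was at least 1.12-fold higher in the combination (means 5.48 and 4.99).

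Selenbp1, a methanethiol oxidase, had almost the same difference with and without the blockade. It measured 9.14, 9.03, 8.74, 8.87 and 8.82 in the combination, against 8.56, 8.59, 8.65, 8.53 and 8.65 under sActRIIB-Fc, a difference of 0.32 ± 0.08 between groups that did not overlap. Under PBS the running arrays measured 8.88, 8.86, 8.70, 8.77 and 8.81, against 8.40, 8.61, 8.44, 8.61 and 8.39 without wheels, a difference of 0.32 ± 0.08 with an adjusted p of 0.89 (limma) and again with no overlap. The interaction of running with sActRIIB-Fc was 0.01 ± 0.12 for this gene, with a 95% interval from -0.24 to 0.25. The 2 differences come from different arrays. In both running groups, however, replicates 1 and 2 were the highest for Selenbp1 and also for the hepatocyte list. That list had a mean of 8.44 and 9.70 on PBS + running replicates 1 and 2. Over the other settings, among them the hepatocyte index as a covariate, the Selenbp1 difference under sActRIIB-Fc lay between 0.21 and 0.38. The part of hepatocyte transcripts in the likeness of the 2 differences was not tested.

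On the lower side, Drc3, a part of the dynein regulatory complex of cilia, had the lowest unadjusted p of all genes (6.8e-05). It measured 5.83, 5.89, 5.84, 6.11 and 5.94 in the combination, against 6.25, 6.29, 6.42, 6.32 and 6.47 under sActRIIB-Fc, a difference of -0.43 ± 0.09 (95% interval -0.61 to -0.24). All combination arrays were below all sActRIIB-Fc arrays, and the 2 other Drc3 probes had the same sign. Popdc2, a cAMP-binding membrane protein of striated muscle, measured 9.86, 9.70, 9.74, 9.98 and 10.10 in the combination, against 10.12, 10.36, 10.08, 10.27 and 10.23 under sActRIIB-Fc. Its difference was -0.33 ± 0.09, with combination replicate 5 inside the other range.

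Gal3st1, the sulfotransferase that makes the myelin lipid sulfatide, had the largest estimated decrease of the 8945 genes. Its levels were 5.13, 6.07, 5.60, 6.79 and 6.73 in the combination, against 7.43, 7.26, 7.30, 6.86 and 6.60 under sActRIIB-Fc, a difference of -1.02 ± 0.29 (95% interval -1.62 to -0.43). Combination replicates 4 and 5 lay within the range of the sActRIIB-Fc arrays, and the low values came from replicates 1 to 3. Tmem43, an inner nuclear membrane protein, differed by -0.40 ± 0.11 and the protease gene Ufsp1 by -0.40 ± 0.11. The fucosyltransferase gene Fut4 differed by -0.53 ± 0.15. Each of these 3 genes overlapped between groups. Gal3st1, Fut4 and Hcfc1r1 were detected on 4 combination arrays and 5 sActRIIB-Fc arrays. Hcfc1r1 (-0.41 ± 0.10) and the zinc finger gene Zfp770 (-0.34 ± 0.09) had separate groups. Asap2, a regulator of Arf GTPases, was detected on 0 combination arrays and on 5 sActRIIB-Fc arrays. By group means set against the detection limit it was at least 1.18-fold lower in the combination (means 5.22 and 5.52). The 95% interval of its log2 difference ran from -0.46 to -0.14. Crip3, a LIM domain protein, was detected on 0 and 4 arrays in the same order of groups and was at least 1.10-fold lower in the combination.

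**Figure D2:**
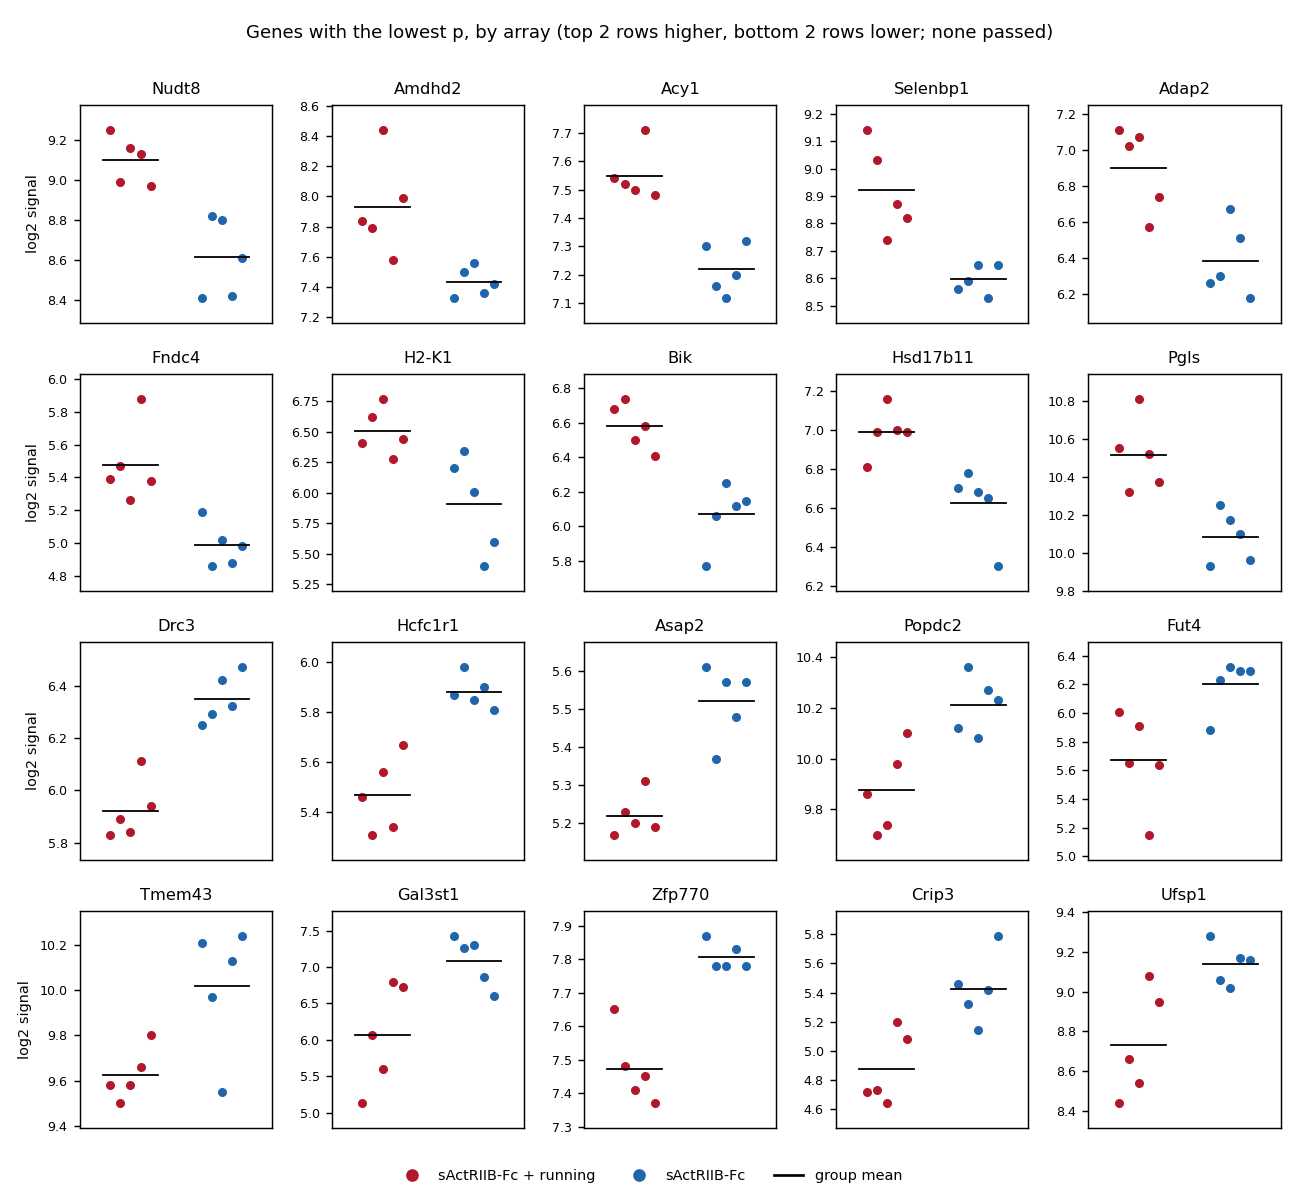
Each panel shows the log2 signal of 1 gene on the 5 combination arrays (red, left) and the 5 sActRIIB-Fc arrays (blue, right), replicates 1 to 5 from left to right, with the group mean as a line. The 10 genes with the lowest p on the higher side fill the top rows and the 10 on the lower side the bottom rows; the groups touch or overlap in panels such as Gal3st1 and Tmem43 and stay apart in panels such as Nudt8 and Drc3.

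Gene groups were then described by their members, with 0 members past the test in each of the 38 lists. Mitochondrial oxidation came first, since it is the best known response of muscle to endurance running. In the list for fatty acid uptake and oxidation, 20 of 24 tested members had positive differences and 4 negative, with a median of 0.12, against -0.01 over all genes. Unadjusted p under 0.05 was reached by 3 members, all higher, while over all genes 4.09% were higher and 4.19% lower at that level. Echs1, the enoyl-CoA hydratase of beta-oxidation, measured 11.38, 11.10, 11.18, 10.84 and 10.89 in the combination, against 10.57, 10.74, 10.84, 10.51 and 10.68 under sActRIIB-Fc. The lowest combination array equalled the highest sActRIIB-Fc array to 2 decimals, and the difference was 0.41 ± 0.11 (adjusted p = 0.52, limma). The short-chain acyl-CoA dehydrogenase gene Acads differed by 0.41 ± 0.14 and the isomerase gene Eci1 by 0.28 ± 0.10, and both overlapped. The median over members was 0.06 without combination replicate 2. The list mean was 9.98, 10.30, 10.04, 10.13 and 10.03 on the combination arrays, against 10.05, 10.00, 10.03, 10.02 and 9.95 on the sActRIIB-Fc arrays, so the groups overlapped and combination replicate 2 was the highest.

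Not all genes of fat use leaned that way. Cpt1b, the carnitine palmitoyltransferase that admits long-chain fatty acids to muscle mitochondria, was at -0.17 ± 0.12, and the thioesterase gene Acot2 at -0.17 ± 0.12. Pdk4, which encodes a kinase that switches off pyruvate dehydrogenase, had levels of 8.82, 11.53, 10.93, 10.22 and 9.90 in the combination, against 11.88, 10.34, 9.90, 11.62 and 10.04 under sActRIIB-Fc. It varied by more than 1 log2 unit inside each group, and its difference of -0.48 ± 0.43 had a 95% interval from -1.36 to 0.40. The uncoupling protein gene Ucp3 ran from 4.85 to 6.75 in the combination and from 5.65 to 6.89 under sActRIIB-Fc, a difference of -0.27 ± 0.31. The same combination array, replicate 1, was lowest for both genes.

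Respiratory complex I had 28 of 33 members positive, with a median of 0.10 and 4 members at unadjusted p under 0.05, all higher. Of complexes II to V, 29 of 38 members were positive (median 0.08, 4 at that level, all higher). Over all genes 4.09% were higher at that level. Ndufb2, an accessory subunit of complex I, measured 10.34, 10.15, 10.12, 9.97 and 9.93 in the combination, against 9.09, 9.77, 10.20, 9.38 and 9.45 under sActRIIB-Fc. Its difference was 0.52 ± 0.19, and sActRIIB-Fc replicate 3 lay inside the combination range. Ndufb11 differed by 0.34 ± 0.14 and Ndufb4 by 0.49 ± 0.23. In the later complexes the muscle isoform Cox7a1 of cytochrome oxidase differed by 0.33 ± 0.13, the succinate dehydrogenase subunit Sdhb by 0.45 ± 0.21 and the complex III subunit Uqcr11 by 0.22 ± 0.10. Cox7a1 measured 14.72 and 14.56 on combination replicates 1 and 2. On replicates 3 to 5 it measured 14.08, 14.02 and 13.93, within the sActRIIB-Fc range of 13.75 to 14.13. Cox4i1 was at 0.17 ± 0.08 and cytochrome c, Cycs, at -0.02 ± 0.09.

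The complex I mean was 12.36, 12.39, 12.13, 12.21 and 12.14 in the combination, against 12.02, 12.16, 12.29, 11.99 and 12.14 under sActRIIB-Fc. Combination replicates 1 and 2, the arrays rich in hepatocyte transcripts, were the highest of the 10. Without those 2 arrays, an alternative chosen after the data were seen, the medians were 0.05 for complex I, 0.01 for complexes II to V and 0.08 for fatty acid uptake and oxidation. With the mean of the hepatocyte genes as a covariate over all arrays, the medians were 0.07 for complex I, 0.03 for complexes II to V and 0.10 for fatty acid uptake and oxidation. Leaving out single arrays gave 0.05 for complex I without sActRIIB-Fc replicate 4, and 0.04 for complexes II to V without combination replicate 1 or without sActRIIB-Fc replicate 1.

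The TCA cycle showed no lean, with 10 of 19 members positive and a median of 0.00. Citrate synthase, Cs, a usual marker of mitochondrial content, measured 11.50, 12.09, 11.36, 11.74 and 11.73 in the combination, against 11.81, 11.87, 11.85, 11.78 and 12.05 under sActRIIB-Fc. Its difference was -0.19 ± 0.13 with full overlap. Among the regulators of mitochondrial biogenesis 10 of 14 were positive (median 0.02). Ppargc1a measured 7.93, 7.99, 7.39, 8.08 and 7.60 in the combination, against 7.61, 8.07, 7.70, 7.43 and 7.96 under sActRIIB-Fc, a difference of 0.05 ± 0.14 (95% interval -0.25 to 0.34). The nuclear receptor gene Esrrb was at 0.31 ± 0.14, the mitochondrial DNA factor Tfam at 0.20 ± 0.10 and the fusion gene Mfn2 at -0.37 ± 0.15. Of 13 genes known to respond to exercise, 6 were positive and 7 negative (median -0.01, and -0.16 without combination replicate 3 or 0.02 without sActRIIB-Fc replicate 4). Among them myoglobin, Mb, the oxygen store of oxidative fibres, was at 0.27 ± 0.09 and the glucose transporter gene Slc2a4 at -0.35 ± 0.15.

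Genes of glycolysis and glycogen use leaned the other way. Of 16 tested members 15 had negative differences, with a median of -0.23. At unadjusted p under 0.05, 5 were lower, against 4.19% of all genes. Pkm, the pyruvate kinase of muscle, measured 13.48, 14.10, 13.59, 14.34 and 14.32 in the combination, against 14.45, 14.27, 14.08, 14.51 and 14.51 under sActRIIB-Fc. The difference was -0.40 ± 0.15 (adjusted p = 0.55, limma), with combination replicates 1 and 3 well below the rest. Fbp2, the muscle fructose bisphosphatase, had 9.95, 9.87, 9.75, 10.18 and 10.06 in the combination, against 10.27, 10.17, 10.14, 10.80 and 10.37 under sActRIIB-Fc, a difference of -0.39 ± 0.13 with 1 combination array inside the other range. Phka1, a subunit of phosphorylase kinase, was at -0.44 ± 0.17 and the hexokinase gene Hk2 at -0.32 ± 0.18. The dehydrogenase gene Gapdh was at 0.00 ± 0.06.

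The glycolysis list separated arrays inside the combination group. Its mean was 12.21, 12.46, 12.17, 12.79 and 12.72 on combination replicates 1 to 5, against 12.70, 12.64, 12.62, 12.74 and 12.77 on sActRIIB-Fc replicates 1 to 5. Combination replicates 1, 2 and 3 were the 3 lowest of the 10 arrays and replicates 4 and 5 stood within or above the sActRIIB-Fc range. Replicates 1, 2 and 3 were also the 3 lowest of the 10 for the fast fibre list, at 13.59, 13.79 and 13.64, against a lowest of 13.81 under sActRIIB-Fc. They were the 3 highest for the macrophage list, at 9.98, 9.65 and 10.53, against a highest of 9.63 under sActRIIB-Fc. Their raw median signal was 98.4, 89.2 and 89.1, against 77.3 and 76.0 on combination replicates 4 and 5. In each other group the glycolysis mean was highest on the last replicate. It was 12.77 there under sActRIIB-Fc, 12.71 in PBS + running, 12.77 in PBS and 12.95 in wild type, against 12.70, 12.57, 12.57 and 12.72 on replicate 1. The part of either list or of the raw signal in this split of the arrays was not tested. The median over members lay between -0.36 (without combination replicate 5) and -0.13 (without combination replicate 3) when single arrays were left out, and was -0.12 without combination replicates 1 and 2. Under PBS the median difference with running was -0.05.

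The same 3 arrays were the lowest of the 10 for calcium handling. Of 16 genes of sarcoplasmic reticulum calcium handling 14 were negative (median -0.14), 4 of them at unadjusted p under 0.05, where 4.19% of all genes were lower. The median was -0.05 without combination replicate 3, -0.07 without replicate 1, -0.23 without replicate 5 and -0.26 without replicate 4. Combination replicates 1 to 3 were the arrays with the lowest fast fibre and highest macrophage list means. They also had the highest raw median signals of the combination arrays. The part of these list means and of the raw signal here was not tested. Casq1, the calcium store protein of fast fibres, measured 9.80, 10.86, 10.12, 11.49 and 11.44 in the combination, against 11.71, 11.45, 11.11, 11.33 and 11.27 under sActRIIB-Fc. Its difference was -0.63 ± 0.25, and its replicates 1 to 3 were below every sActRIIB-Fc array while replicates 4 and 5 were not. Srl, which encodes sarcalumenin, was at -0.40 ± 0.17. Sln, the calcium pump inhibitor sarcolipin, was at 0.23 ± 0.25. The list mean was 10.71 and 10.96 on combination replicates 3 and 1, against a lowest value of 11.26 among the sActRIIB-Fc arrays.

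Fibre type genes did not lean toward the slow type. Of 12 slow fibre genes 9 were negative, with a median of -0.24. Myh7, the slow myosin heavy chain, had levels of 5.75, 5.27, 5.42, 8.16 and 6.73 in the combination, against 6.72, 6.43, 7.57, 7.17 and 7.26 under sActRIIB-Fc. It was lowest on combination replicates 1 to 3 and highest on replicate 4, and its difference of -0.77 ± 0.43 had a 95% interval from -1.65 to 0.12. The slow light chain gene Myl2 was at -0.45 ± 0.21, the slow calcium pump gene Atp2a2 at -0.45 ± 0.19 and the light chain gene Myl3 at 0.20 ± 0.15. Myoglobin, Mb, also a member of this list, was at 0.27 ± 0.09. At unadjusted p under 0.05, 1 member was higher and 2 lower, where 4.09% of all genes were higher and 4.19% lower. Over all members the slow list mean ran from 10.49 to 11.30 in the combination, against 10.77 to 11.41 under sActRIIB-Fc. With single arrays left out the median lay between -0.37 (without combination replicate 1) and -0.09 (without sActRIIB-Fc replicate 3).

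Of 14 fast fibre genes 12 were negative with a median of -0.04, which became 0.01 when arrays were scaled to equal medians. Among them, a pair of fast myosins differed in sign, and one was not tested against the other. Myh1, the myosin heavy chain of type IIx fibres, measured 12.54, 12.84, 12.64, 12.84 and 12.71 in the combination, against 11.79, 12.47, 12.65, 12.33 and 12.36 under sActRIIB-Fc. Its difference was 0.39 ± 0.14 (adjusted p = 0.52, limma), with overlap through sActRIIB-Fc replicate 3 alone. Myh4, the heavy chain of type IIb fibres, had 13.40, 13.98, 13.18, 14.30 and 14.26 in the combination, against 14.19, 13.99, 14.24, 14.42 and 14.34 under sActRIIB-Fc, a difference of -0.41 ± 0.17. Under PBS, running gave Myh1 a difference of 0.50 ± 0.14 and Myh4 one of -0.15 ± 0.17, neither past the test.

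**Figure D3:**
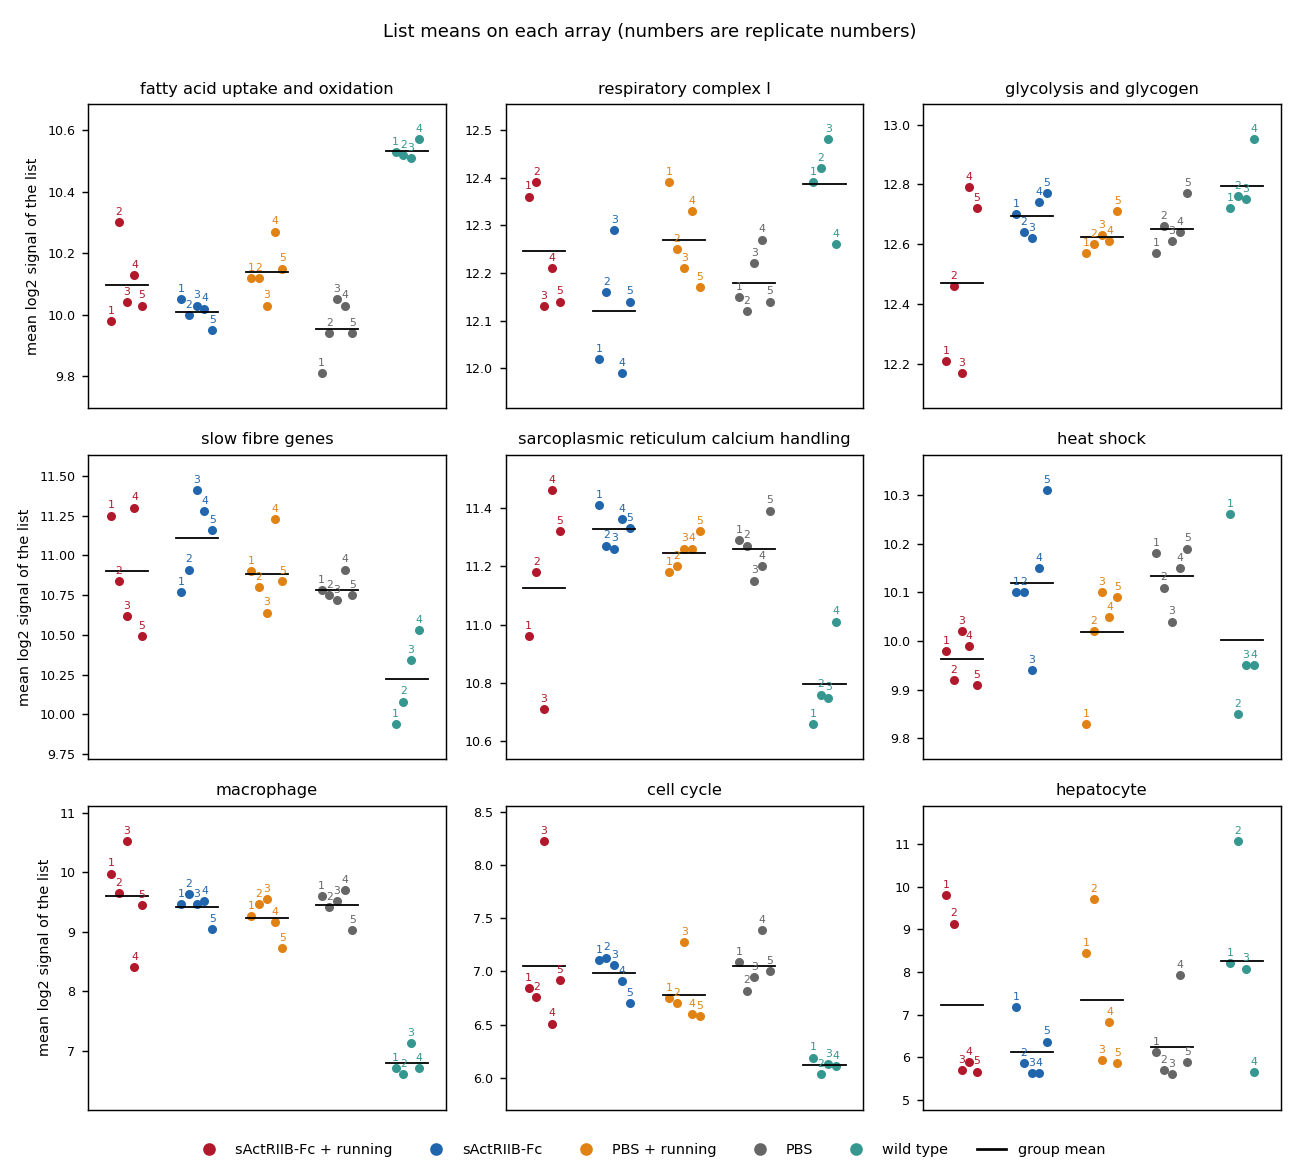
Each panel shows the mean log2 signal of a gene list on every array, by group from left to right (sActRIIB-Fc + running, sActRIIB-Fc, PBS + running, PBS, wild type), with replicate numbers above the points and the group mean as a line. Combination replicates 1 to 3 are the lowest of the mdx arrays for glycolysis, combination replicate 3 is the highest of all arrays for cell cycle and macrophage genes, and combination replicates 1 and 2 lie above the sActRIIB-Fc arrays for hepatocyte genes.

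Stress and immediate early genes were mostly lower in the combination. Of 11 heat shock genes 10 were negative, with a median of -0.21 and a range from -0.25 to -0.16 when single arrays were left out. Hspd1, the mitochondrial chaperonin, measured 9.99, 10.12, 10.01, 10.06 and 10.13 in the combination, against 10.19, 10.19, 10.31, 10.41 and 10.42 under sActRIIB-Fc. Every combination array was lower, and the difference was -0.24 ± 0.09 (adjusted p = 0.57, limma). The constitutive chaperone gene Hspa8 was at -0.20 ± 0.08 and the small heat shock protein gene Cryab at -0.29 ± 0.14, while Hspe1, the partner of Hspd1, was at 0.36 ± 0.20. The list mean was 9.91 to 10.02 in the combination and 9.94 to 10.31 under sActRIIB-Fc, where 4 of the 5 arrays were at 10.10 or above.

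Of 12 immediate early genes, which are transcribed within minutes of a stimulus, 10 were negative (median -0.19, and -0.11 without combination replicates 1 and 2). At unadjusted p under 0.05, 1 member was lower, where 4.19% of all genes were lower. The list mean ran from 7.39 to 7.93 in the combination and from 7.53 to 7.93 under sActRIIB-Fc, so the groups overlapped. Egr1, a zinc finger transcription factor, measured 10.11, 10.03, 10.08, 9.69 and 9.56 in the combination, against 10.32, 10.46, 10.17, 10.36 and 10.50 under sActRIIB-Fc. The groups did not overlap, and the difference was -0.46 ± 0.22 (adjusted p = 0.60, limma). The phosphatase gene Dusp1 was at -0.38 ± 0.19 and Fos at -0.70 ± 0.38, with Fos between 6.44 and 8.05 in the combination and between 6.98 and 8.49 under sActRIIB-Fc. For the unfolded protein response, 9 of 13 genes had negative differences (median -0.10). Its factor Ddit3, also called CHOP, went the other way. Ddit3 measured 8.45, 8.42, 8.18, 8.28 and 8.21 in the combination, against 7.84, 7.71, 7.96, 7.77 and 8.17 under sActRIIB-Fc, separate groups with a difference of 0.42 ± 0.15 (adjusted p = 0.52, limma). Of 21 antioxidant genes 13 were positive (median 0.03), and the superoxide dismutase gene Sod1 was higher on every combination array by 0.16 ± 0.07.

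Inflammatory and proliferative genes moved with single arrays. In bulk muscle RNA, fewer cells of a type and less RNA per cell cannot be told apart. Of 19 macrophage genes 15 were positive (median 0.19), none of them at unadjusted p under 0.05. The list mean was 9.98, 9.65, 10.53, 8.40 and 9.45 in the combination, against 9.46, 9.63, 9.47, 9.51 and 9.04 under sActRIIB-Fc, so that combination replicate 3 was the highest and replicate 4 the lowest of the 10. Without combination replicate 3 the median was -0.02, and without replicate 4 it was 0.48. The monocyte receptor gene Cd14 was at 0.44 ± 0.25, the complement gene C1qa at 0.42 ± 0.27 and the chemokine gene Ccl2, detected on 1 combination array and 3 sActRIIB-Fc arrays, at -0.32 ± 0.33. MHC class II genes had 4 of 7 positive (median 0.08, -0.03 without combination replicate 3 and 0.23 without replicate 4).

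Cell cycle genes had 8 of 15 positive and a median of 0.03, which was -0.25 without combination replicate 3. That array had a list mean of 8.23, against 6.51 to 6.92 on the other combination arrays and 6.70 to 7.13 under sActRIIB-Fc. Cdk1, the mitotic kinase, was 7.62 there, against 4.66 to 5.68 on the other combination arrays and 4.89 to 5.77 under sActRIIB-Fc, and its difference was 0.38 ± 0.34, with detection on 3 arrays of each group. Interferon-induced genes had 13 of 14 positive, with a median of 0.09 that was 0.00 without combination replicates 1 and 2, 0.02 without replicate 1 alone and 0.23 without replicate 4. Rsad2, an antiviral enzyme, was at 0.46 ± 0.21. Of 21 extracellular matrix genes 14 were negative (median -0.12, and -0.05 without combination replicate 4). Ccn2, a matrix growth factor, was at -0.42 ± 0.19, Col6a1 at -0.33 ± 0.15 and Col3a1 at 0.27 ± 0.25, whose 1 other probe had the opposite sign.

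Regeneration genes showed no common direction, with 10 of 15 negative and a median of -0.03 that was -0.28 without combination replicates 1 and 2. Actc1, the cardiac actin of developing fibres, measured 13.31, 13.45, 13.09, 13.86 and 13.48 in the combination, against 13.80, 13.93, 13.73, 13.86 and 14.13 under sActRIIB-Fc. The difference was -0.45 ± 0.16 (adjusted p = 0.52, limma), with combination replicate 4 inside the other range. Myh8, the perinatal myosin, was at -0.07 ± 0.30 and Myog, the regulator of terminal differentiation, at 0.45 ± 0.30. At the neuromuscular junction 9 of 12 genes were negative (median -0.12), 3 of them at unadjusted p under 0.05 (4.19% of all genes were lower there). These were Etv5, a transcription factor of synaptic nuclei, at -0.45 ± 0.14, the receptor subunit gene Chrnb1 at -0.29 ± 0.12 and the kinase subunit gene Prkar1a at -0.22 ± 0.10.

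In the pathway that sActRIIB-Fc acts on no gene passed. Of 23 activin and BMP genes 9 were positive and 14 negative (median -0.03), with members between -0.34 and 0.25. Acvr2b, the receptor whose soluble form was injected, measured 8.82, 9.39, 9.13, 10.57 and 10.32 in the combination, against 10.17, 9.62, 9.97, 10.28 and 9.90 under sActRIIB-Fc. Its replicates 1 to 3 were below all sActRIIB-Fc arrays and its replicates 4 and 5 above them, and the difference was -0.34 ± 0.26. Fst, the activin antagonist follistatin, was at 0.18 ± 0.17 and Smad1, a mediator of BMP signals, at 0.25 ± 0.11, with 1 of its 2 other probes of the opposite sign. Of 14 atrophy genes 9 were negative (median -0.05, and -0.14 without combination replicate 4). The ubiquitin ligase gene Fbxo32 was at 0.13 ± 0.21 and the ubiquitin ligase gene Trim63 at -0.04 ± 0.16, and 1 of the 2 other Fbxo32 probes had the opposite sign. Growth and protein synthesis genes (6 of 15 positive, median -0.04) and autophagy genes (14 of 25 positive, median 0.00) were close to the median of all genes. Igfbp5, a binding protein of insulin-like growth factors, was at -0.42 ± 0.18, and Map1lc3b, the autophagosome protein, at 0.07 ± 0.13. Bnip3 was detected on no array and was not tested.

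Vessel, clock, nerve and dystrophin complex lists had negative medians. Of 18 endothelial genes 13 were negative (median -0.09, 0.01 without combination replicate 3 and -0.21 without replicate 4), with the adhesion gene Pecam1 at -0.24 ± 0.18 and the growth factor Vegfa at -0.18 ± 0.12. Of 13 clock genes 10 were negative (median -0.15). Single arrays moved this median to -0.31 (without combination replicate 5) and to -0.05 (without sActRIIB-Fc replicate 1). Their list mean spread from 7.95 to 8.78 in the combination and from 8.13 to 8.76 under sActRIIB-Fc, and the clock factor Arntl ran from 6.13 to 7.85 in the combination and from 6.06 to 7.73 under sActRIIB-Fc. The time of day of sampling is not given in the sources used here. Of 12 genes of the dystrophin complex 9 were negative (median -0.09), with Sspn, which encodes sarcospan, at -0.22 ± 0.10 and Plec, a cytoskeletal linker, at -0.33 ± 0.22. Of 6 genes of Schwann cells and nerve 5 were negative (median -0.13), among them the myelin gene Mbp at -0.34 ± 0.18.

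Markers of other tissues gave both signs. Adipocyte genes were positive in 9 of 9 cases, with a median of 0.20 and a range from 0.11 (without combination replicate 4) to 0.29 when single arrays were left out. Dgat2, the last enzyme of triglyceride synthesis, measured 9.40, 9.57, 8.99, 10.01 and 9.65 in the combination, against 9.01, 8.79, 9.10, 9.00 and 9.33 under sActRIIB-Fc. Its difference was 0.48 ± 0.17 (adjusted p = 0.54, limma), with combination replicate 3 inside the other range. Adipoq, which encodes adiponectin, was at 0.31 ± 0.27 and the lipase gene Pnpla2 at 0.18 ± 0.15. The adipocyte list mean ran from 8.25 to 8.63 in the combination and from 7.99 to 8.51 under sActRIIB-Fc, so the groups overlapped. Of 5 mast cell genes 4 were positive (median 0.24), the proteases Mcpt4 and Cma1 at 0.38 ± 0.17 and 0.43 ± 0.20. Hepatocyte genes were positive in 17 of 17 cases with a median of 1.30, none at unadjusted p under 0.05, and the median was -0.31 without combination replicates 1 and 2. Running under PBS gave them a median of 1.24, with 16 of 17 positive. On the wild-type arrays the hepatocyte list mean was 8.21, 11.07, 8.08 and 5.66, so high values were not limited to the combination. The members ran from 0.06 to 1.55, and the 2 brightest lay below the median. These were Hp, which encodes haptoglobin, at 0.06 ± 0.40 and Cyp2e1, a cytochrome P450, at 0.45 ± 0.32. Tendon (5 of 8 negative, median -0.10) and smooth muscle genes (5 of 8 negative, median -0.01) completed the markers with at least 5 tested members.

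**Figure D4:**
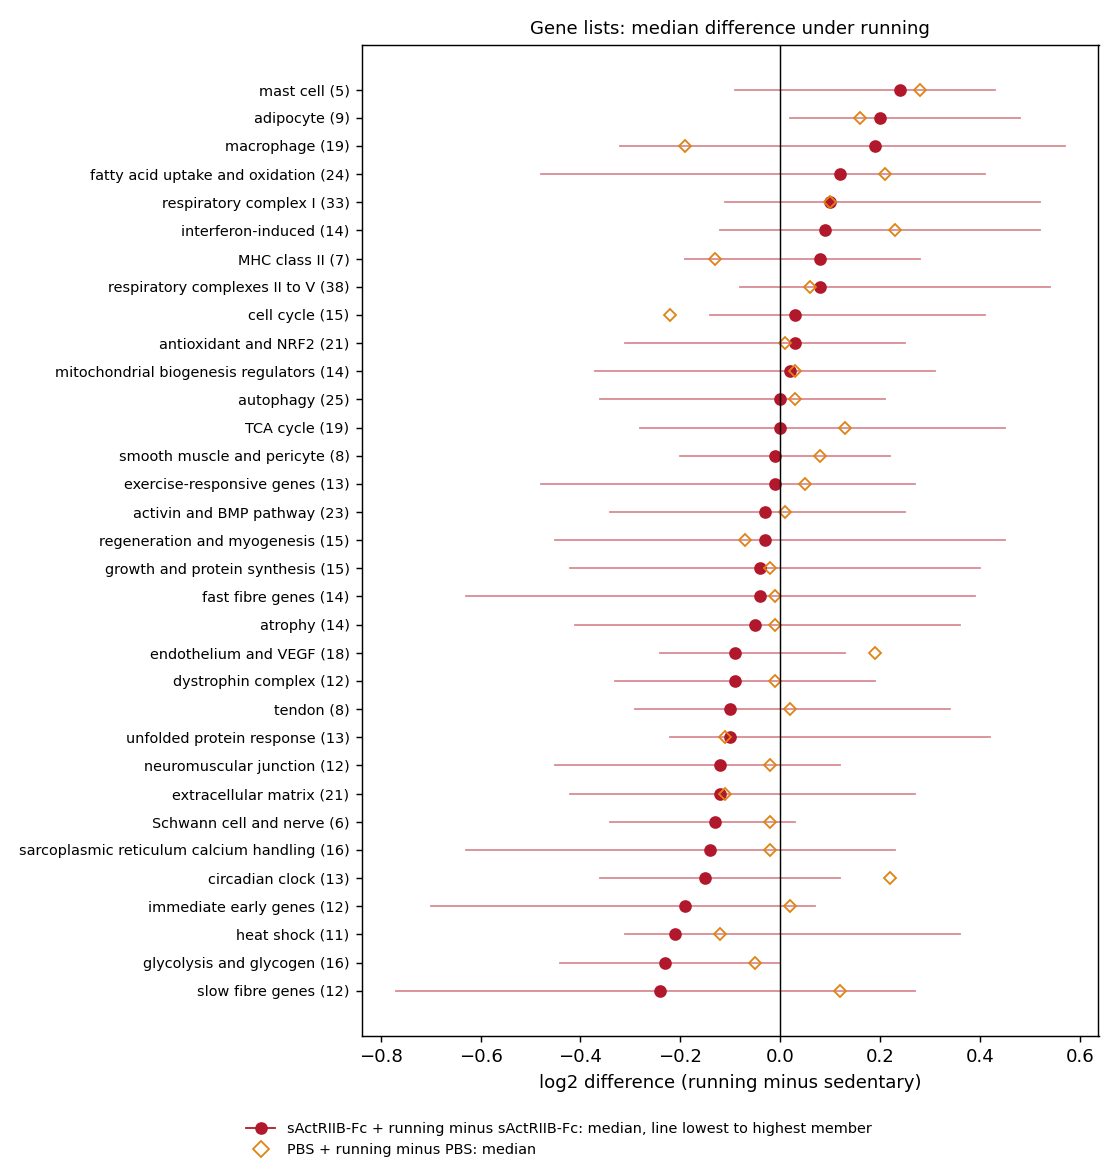
For each gene list with at least 5 tested members other than hepatocyte (number of tested members in brackets), the filled circle is the median log2 difference of the combination minus sActRIIB-Fc, the line runs from the lowest to the highest member, and the open diamond is the median of PBS + running minus PBS. The circles lie between -0.24 (slow fibre genes) and 0.24 (mast cell genes), and almost every line crosses zero; respiratory lists have circle and diamond close together, while slow fibre, circadian, endothelial, macrophage and cell cycle lists have them on opposite sides of zero.

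Whether running had the same effect with and without sActRIIB-Fc was asked of each gene by the interaction, the combination minus sActRIIB-Fc difference less the PBS + running minus PBS difference, which rest on different arrays. Of 8945 genes 0 (0%) passed adjusted p 0.05 in limma, the lowest adjusted p was 0.93, and 356 genes (3.98%) had an unadjusted p under 0.05. That last count was 584 without PBS + running replicate 1, 229 without PBS + running replicate 5 and 854 without combination replicate 4. Under PBS, running itself changed 1 gene (0.0112%), Aqp4, and 297 genes (3.32%) had an unadjusted p under 0.05. Positive differences under PBS were found for 49.4% of genes. Over the medians of the lists, fatty acid oxidation was at 0.12 with sActRIIB-Fc and 0.21 under PBS, complex I at 0.10 and 0.10, complexes II to V at 0.08 and 0.06, the TCA cycle at 0.00 and 0.13, slow fibre genes at -0.24 and 0.12, endothelial genes at -0.09 and 0.19, and macrophage genes at 0.19 and -0.19. The difference between the medians of a list was not tested.

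Aqp4, the water channel of fast fibres, had a higher level with running under PBS, where it passed, and a small difference under sActRIIB-Fc. It measured 6.82, 7.00, 6.95, 7.00 and 6.82 in the combination, against 6.76, 6.83, 6.82, 6.45 and 6.76 under sActRIIB-Fc, a difference of 0.19 ± 0.12 (95% interval -0.06 to 0.44, adjusted p = 0.66, limma). Under PBS the values were 7.39, 7.46, 7.14, 7.89 and 7.62 with running, against 6.87, 6.51, 6.55, 6.37 and 6.66 without, a difference of 0.90 ± 0.12 (adjusted p = 0.0011, limma). All running arrays under PBS were above the highest combination array. The interaction was -0.71 ± 0.17 (unadjusted p = 0.00038, adjusted p = 0.93, limma), so a difference between the responses did not pass.

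Drc3 had the lowest interaction p, at -0.53 ± 0.13 (unadjusted p = 0.00031, adjusted p = 0.93, limma). Its levels under PBS were 5.97, 6.21, 6.00, 6.27 and 6.00 with running, against 6.01, 5.97, 5.99, 5.95 and 6.03 without, so that the sActRIIB-Fc arrays, at 6.25 to 6.47, were above nearly all other mdx arrays. The remaining 4 genes of the 6 with the lowest interaction p were Reln (-0.69 ± 0.18), Tab3 (-0.71 ± 0.21), Zcchc3 and Zap70, each at an adjusted p of 0.93 (limma). Reln, which encodes the secreted protein reelin, differed by -0.43 ± 0.13 under sActRIIB-Fc and 0.26 ± 0.13 under PBS. Tab3, an adaptor of inflammatory kinase signalling, differed by -0.35 ± 0.15 and 0.37 ± 0.15 in the same order. Zcchc3, a zinc finger gene, was detected on 2 combination arrays and 4 sActRIIB-Fc arrays, and Zap70, a T cell receptor kinase, on 2 and 0. Their levels lay near the detection limit, so no size is given for their differences.

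**Figure D5:**
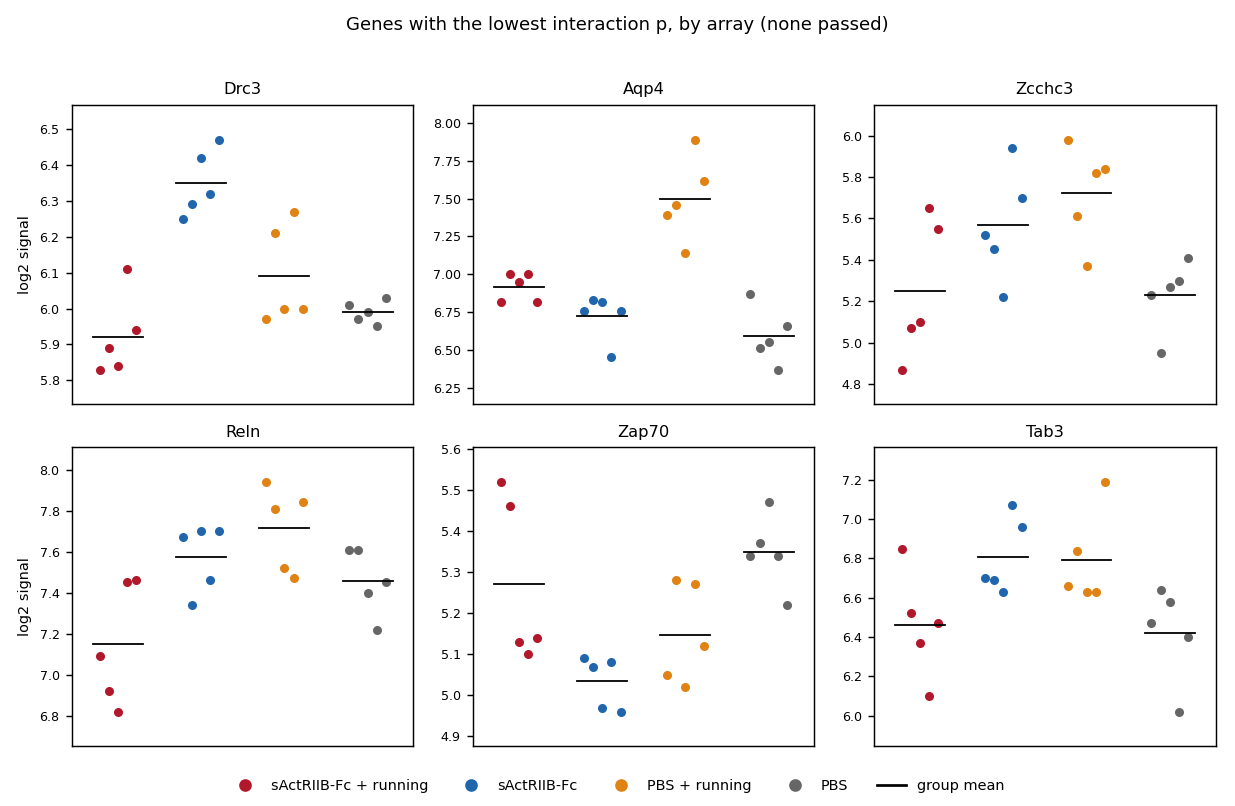
Each panel shows the log2 signal of 1 gene on the mdx arrays, with the combination (red), sActRIIB-Fc (blue), PBS + running (orange) and PBS (grey) from left to right, 5 arrays each, and the group mean as a line. The Aqp4 panel shows PBS + running at 7.14 to 7.89 above all other groups, and the Drc3 panel shows sActRIIB-Fc at 6.25 to 6.47 as the highest group.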

How the data were processed

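Total RNA from powdered gastrocnemius was measured on 24 Illumina bead arrays, 1 per mouse, per the labels. The deposited table held intensity values for 25697 probes, neither background-subtracted nor normalized, with a detection p-value per probe, per the file headers. A deposited matrix of log2 values matched the log2 of the quantile-normalized signal to within 0.0050 and served as an alternative. The software behind these files is not given in the sources used here.

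Background was corrected with normexp (limma 3.58.1, R 4.3.3, offset 16), followed by quantile normalization and log2. Probes with detection p under 0.05 on at least 4 arrays were kept (12623). Each gene was represented by its brightest probe, and 23978 of all probes had 1 symbol, 0 several and 1719 none here, which left 8945 genes. One limma model over 24 arrays, with a mean for each of the 5 groups and empirical Bayes moderation, was tested two-sided and adjusted by Benjamini and Hochberg over 8945 genes. Precision is limited by 5 arrays per group. On simulated data the fit recovered 51 of 100 genes changed by 0.5 log2 units and 93 of 100 changed by 1, with 4 false calls. The simulated spread of a gene was the same in every group, unlike that of these arrays.

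The comparison, the 38 gene lists (694 genes, 514 tested) and the naming rule were chosen with earlier results of these data known. Named genes were the 10 with the lowest p in each direction, up to 3 list members with the lowest p in the direction of the list median and up to 2 in the other, the 6 with the lowest interaction p, and a preset group of muscle genes. From the hepatocyte list the 2 brightest members were named instead. A fold written "at least" was computed from a group mean against the detection limit, and is not the lower end of a confidence interval. The scale of medians and single genes is a log2 difference. The alternatives were arrays of the compared groups alone, other scalings, background settings, filters, probes, weights and priors, the hepatocyte index or raw signal as covariates, a replicate block, and leaving out each array. Chip and scan positions are not given in the sources used here.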

Additional observations from a re-analysis of the deposited data

Results flagged for a closer look

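Of 450 group values examined for 1 array standing apart from the other 4 (189 named genes, 34 lists, the raw median signal and the number of detected probes, each in both groups), 21 passed Dixon's 95% limit of 0.71, and chance flags about 1 in 20. None was weighed further. On the combination arrays, replicate 3 stood apart in 7 of them. Its cell cycle list mean was 8.23 (others 6.51 to 6.92), Mcm3 6.21 (4.80 to 4.97), Ccl2 7.00 (4.64 to 5.32), Pdia6 5.69 (4.97 to 5.08), Psmd11 8.65 (8.96 to 9.05), Ndufa6 13.00 (13.40 to 13.53) and Gapdh 14.60 (14.67 to 14.70). Combination replicate 4 stood apart with Acy1 at 7.71 (7.48 to 7.54) and Chrng at 7.73 (9.30 to 9.62).

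Under sActRIIB-Fc, replicate 1 stood apart for Fut4 at 5.88 (6.23 to 6.32), Lamp1 at 12.52 (12.18 to 12.23) and Adipoq at 9.69 (9.04 to 9.22). Replicate 3 stood apart for Dnajb9 at 9.23 (8.97 to 9.04) and for the dystrophin complex and Schwann cell list means, at 8.92 (9.02 to 9.06) and 7.39 (7.02 to 7.13). Replicate 4 did so for Rsad2 at 7.34 (8.06 to 8.28), Aqp4 at 6.45 (6.76 to 6.83), and the extracellular matrix and autophagy list means, at 10.45 (10.10 to 10.15) and 9.10 (9.05 to 9.06). Replicate 5 did so for Hsd17b11 at 6.30 (6.65 to 6.78) and for probes detected, at 11088 (11491 to 11539). No gene was separated in opposite directions by running with and without sActRIIB-Fc.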

How the results depend on the processing

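The count of genes past adjusted p 0.05 in limma was 0 under each of the 23 other settings of the combination against sActRIIB-Fc, with the lowest adjusted p from 0.11 (array weights) to 0.88 (without combination replicate 1), and it was 0 for the interaction under every setting run. Genes at an unadjusted p under 0.05 numbered 741, but 1114 with no detection filter (which tests more genes) and 1524 with array weights, and 477 to 1513 when single arrays were left out. For the interaction they numbered 356, but 688 with no filter, 769 with array weights, and 229 to 854 when single arrays were left out; the cause was not tested. Replicate numbers shared between groups gave 1076 and 591 such genes with the number as a block (lowest adjusted p 0.17 and 0.73, limma). Raw median signal as a covariate gave 1012 and 478 (lowest adjusted p 0.27 and 0.83, limma). Deviations of same-numbered combination and sActRIIB-Fc arrays correlated at 0.00, -0.08, 0.21, 0.07 and 0.11. Of 5 combination arrays, 0 correlated best with their own number, so the numbers were not taken as pairs. That check does not bear on the raw median signal, which fell with replicate number in both groups. From replicate 1 to 5 it went from 98.4 to 76.0 in the combination and from 98.1 to 79.0 under sActRIIB-Fc. The source of this order is not given in the sources used here. The 20 genes with the lowest p kept their sign in all 434 values under other settings. They were picked by their p on these same arrays, so the kept signs are no support for a change. Of 4139 such values over the named genes 80 changed sign, in 32 genes, and none reached adjusted p 0.05. The median over all genes was -0.02 with equal-median scaling. The medians of the fatty acid oxidation, complex I, glycolysis, slow fibre, calcium handling, heat shock, immediate early and adipocyte lists were among 21 with no change of sign under all 22 settings, where the TCA cycle and autophagy medians, at 0.00, had no sign to change and took values on both sides of zero. The other 13 changed sign under at least 1: smooth muscle 7, antioxidant 4, cell cycle 4, mitochondrial biogenesis 2, and exercise, fast fibre, regeneration, macrophage, MHC class II, activin and BMP, atrophy, endothelial and hepatocyte lists 1 each. Leaving out combination replicates 1 and 2, chosen after the data were seen, gave 0 and 575 genes. List medians that came nearer to zero included macrophage at 0.04, mast cell at 0.10, unfolded protein response at -0.02, clock at -0.06, endothelial at -0.02 and tendon at -0.01. Others moved away from zero, among them slow fibre at -0.33, extracellular matrix at -0.18, adipocyte at 0.33 and cell cycle at 0.21. Signal over background limits genes near the detection limit, such as Fndc4, Asap2, Crip3, Zcchc3, Zap70, Cdk1 and Ccl2.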

Other observations

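Differences with running under sActRIIB-Fc and under PBS can be set beside each other over all genes, since they share no array. Across 8945 genes, which are not independent replicates, Pearson's r was 0.25 and Spearman's rho 0.06. Without the hepatocyte list r was 0.18, with the hepatocyte index as a covariate it was -0.02, and without the 7 arrays whose index was above 8 it was -0.16. Of the 741 genes at unadjusted p under 0.05 in the combination against sActRIIB-Fc, 58.4% had the same sign under PBS, against 51.7% of all genes. The 33 genes at that level in both comparisons included 28 with the same sign.

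Of the 41 genes with every combination array above and the 32 with every combination array below the sActRIIB-Fc arrays, a few outside the naming rule are given here, chosen after their values were seen and showing no theme that was tested. On the higher side Ckmt2, the mitochondrial creatine kinase of muscle, was at 0.29, the mitochondrial protease subunit Clpp at 0.37 and the tyrosine breakdown enzyme Fah at 0.47. Selenbp2, a close relative of Selenbp1 whose probes may share signal with it, was at 0.69. The part of hepatocyte transcripts in the Fah and Selenbp2 values was not tested. On the lower side Coa5, a cytochrome oxidase assembly factor, was at -0.29, the mitochondrial fission GTPase Dnm1l at -0.23 and the ubiquitin ligase gene Trim32 at -0.25. None passed the test.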
